A study of Mus musculus with 10 samples.

Results

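The genes described here are 10 that handle iron, metals and reactive oxygen in the mouse retina: the ferritin subunits Ftl1 and Fth1, the metallothioneins Mt1 and Mt2, the superoxide dismutases Sod1 and Sod2, catalase (Cat), the glutathione peroxidases Gpx1 and Gpx4, and the peroxiredoxin Prdx1. They were chosen by symbol, and each symbol matched 1 Ensembl ID among the 57186 genes of the deposited count table. Polyadenylated RNA was sequenced from neuroretina, the neural layer of the eye, of female C57BL6/JRj mice killed at day 14 after intravitreal injection. The CNP group (5 libraries, labelled 4, 8, 12, 16 and 20) had received 1 µL of graphitic carbon nitride nanoparticles, named hg-C3N4 in the labels, at 1 mg/mL in PBS. The PBS group (5 libraries, labelled 2, 6, 10, 14 and 18) had received PBS alone, so both groups carry the effect of the needle, and no uninjected group was analysed here. The design text gives 5 mice for CNP and 5 eyes for PBS; whether each library is a separate animal is not stated further, and p-values measure the spread between these libraries.

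Ferritin is a hollow shell of light (Ftl1) and heavy (Fth1) chains that stores iron, and the heavy chain oxidises ferrous iron so that it cannot feed the Fenton reaction. Metallothioneins are small cysteine-rich proteins that bind zinc and copper. Superoxide dismutases convert superoxide to hydrogen peroxide, in the cytosol (Sod1) and in mitochondria (Sod2), and catalase, glutathione peroxidases and peroxiredoxins remove the peroxide; Gpx4 acts on peroxidised membrane lipids and is the enzyme that restrains ferroptosis. The retina is known for high oxygen use and for photoreceptor membranes rich in polyunsaturated lipids, which is why these systems are studied there.

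Ferritin synthesis is set largely at translation, through an iron-responsive element in the 5′ untranslated region to which iron regulatory proteins bind when iron is low. RNA counts do not measure that step, and the elements are shown because they mark what the ferritin counts below can and cannot report. Each was found as a bulged C, 5 bases, the loop CAGTGN and 5 bases that pair with the first 5, a pattern present in 21 of 18996 mouse 5′ untranslated regions searched, 1 a gene (0.111%; GENCODE M21, GRCm38). Both are written as DNA with the 6-base loop in capitals. The Ftl1 element (chromosome 7) spans bases 79 to 106 of a 968-base transcript, and the Fth1 element (chromosome 19) bases 88 to 115 of a 929-base transcript. The 28-base windows differ at 2 positions.
Ftl1: tcttgcttcaaCAGTGTttgaacggaac
Fth1: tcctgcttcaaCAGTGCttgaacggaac

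Mt1 and Mt2 lie beside each other on chromosome 8 and are known to be induced together through metal response elements, to which the zinc-sensing factor MTF1 binds. Their promoters are shown because these elements are what the pair is known for; nothing in the counts tests them. RefSeq promoter windows of 300 bases on GRCm38.p6 (250 before to 50 after the start) were found for all 10 genes and searched on both strands for TGCACNC and TGCGCNC, the letters used here for the metal response element core. Mt2 held 4 matches and Mt1 held 3, while no window of the other 8 genes held any. At least 1 match was present in 25.7% of 32851 windows, at least 3 in 1.97% and at least 4 in 0.517%. The 250 bases before each start, both on the plus strand, contain 3 matches in Mt2 (chr8:94172368-94172617) and 1 in Mt1 (chr8:94178839-94179088), given in capitals; the other 2 matches of Mt1 lie in the 50 bases after its RefSeq start. These counts depend on the start chosen: GENCODE M21 also annotates Mt1 transcripts that begin 122 and 152 bases further downstream, and the 250 bases before each of those hold 5 matches, while the 250 bases before the other Mt2 starts hold 3 and 4. Which start was used in these libraries was not measured, so the printed Mt1 sequence may not be its main promoter, and no difference between the genes is read from 1 against 3.
Mt2: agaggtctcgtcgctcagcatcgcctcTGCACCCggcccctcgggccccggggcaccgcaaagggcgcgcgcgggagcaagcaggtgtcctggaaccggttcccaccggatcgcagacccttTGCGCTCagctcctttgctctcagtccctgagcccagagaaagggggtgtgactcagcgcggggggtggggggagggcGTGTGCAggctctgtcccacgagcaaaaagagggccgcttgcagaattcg
Mt1: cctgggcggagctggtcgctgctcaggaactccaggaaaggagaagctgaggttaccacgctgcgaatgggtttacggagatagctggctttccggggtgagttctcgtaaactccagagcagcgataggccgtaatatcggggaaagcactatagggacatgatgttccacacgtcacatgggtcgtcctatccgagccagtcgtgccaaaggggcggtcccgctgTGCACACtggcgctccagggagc
The antioxidant response core TGACNNNGC, in 12.4% of windows, was present once each in Mt2, Prdx1 and Sod1, and ACANNNTGT, the core of the steroid receptor element, in 6.85% of windows and once in Mt1. None of the matches in these windows overlapped another. A match is a description of the letters only.

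Library totals ran from 3328518 to 5428697 counts, so a count of 0 in 1 library allows up to 0.553 to 0.901 CPM (3 counts, counting error only). The 10 genes held 0.523% of all counts, and all 10 passed the low-count filter that left 11499 genes; their lowest single-library count was 120, for Cat. The tissue label was met by its markers on library totals: 8 rod genes summed to 45000 to 66700 CPM and 8 Müller glia genes to 3030 to 5330 CPM. Lens transcripts were also present, summing to 333 to 13800 CPM in PBS while CNP libraries held 383 to 5420 CPM, as were 10 pigment epithelium markers (565 to 2160 and 1080 to 2500 CPM). All 12 lens genes tested had negative fold changes (median log2 value -1.40), and 6 of 7 pigment epithelium genes had positive ones (median 0.36); none was called. Red blood cell markers, which matter for catalase and peroxiredoxins, summed to between 84.5 and 143 CPM in PBS, while CNP libraries held 87.6 to 150 CPM, and Slc4a1, a defining gene of that list, was at 0. Libraries numbered above 10 stood apart from the rest, with no overlap for 20.6% of all tested genes; values with and without them are given with Gpx4. In bulk tissue, fewer cells of a type and less RNA per cell cannot be told apart.

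Between genes, levels are compared per kilobase of the longest annotated coding transcript, as CPM per kb (mean ± SD over all 10 libraries). Ferritin was the most abundant, with Ftl1 at 1554 ± 239 and Fth1 at 972 ± 186 CPM per kb. Gpx4 followed at 640 ± 212, Prdx1 at 390 ± 37.2, Mt1 at 261 ± 34.4, Mt2 at 155 ± 31.8, Gpx1 at 93.1 ± 13.4, Sod1 at 78.7 ± 7.81, Sod2 at 48.9 ± 3.23 and Cat at 15.4 ± 1.36 CPM per kb. The order of neighbours held within every library except for Gpx1 above Sod1, which held in 9 of 10. Over libraries, the ranges of 5 neighbouring pairs overlapped: Ftl1 with Fth1, Fth1 with Gpx4, Gpx4 with Prdx1, Mt2 with Gpx1, and Gpx1 with Sod1. The labels do not say where along the transcripts reads were counted. Their protocols name barcoded primers with UMIs and template switching, and whether counts rise with transcript length here was not measured. The order depends on this scale. In CPM without length, Sod2 (287) stood above Mt1 (283), Gpx1, Mt2 and Sod1, Prdx1 (894) above Gpx4 (637), and Gpx1 (99.8) above Mt2 (79.3). The move is largest for Sod2, whose longest annotated transcript has 5861 bases where that of Sod1 has 641. For Fth1 the longest has 1494 bases, where the transcript that holds the element shown above has 929. The order of Ftl1 and Fth1 per kb depends on that choice. Sod1 also overlaps Scaf4 on the opposite strand over 650 bases (GENCODE M21); Scaf4 had 487 counts, 21.9% of those of Sod1, and as the use of strand is not given, reads in the overlap cannot be told apart. Genes that overlap Ftl1 and Mt2 on the opposite strand held 20 and 16 counts.

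**Figure D1:**
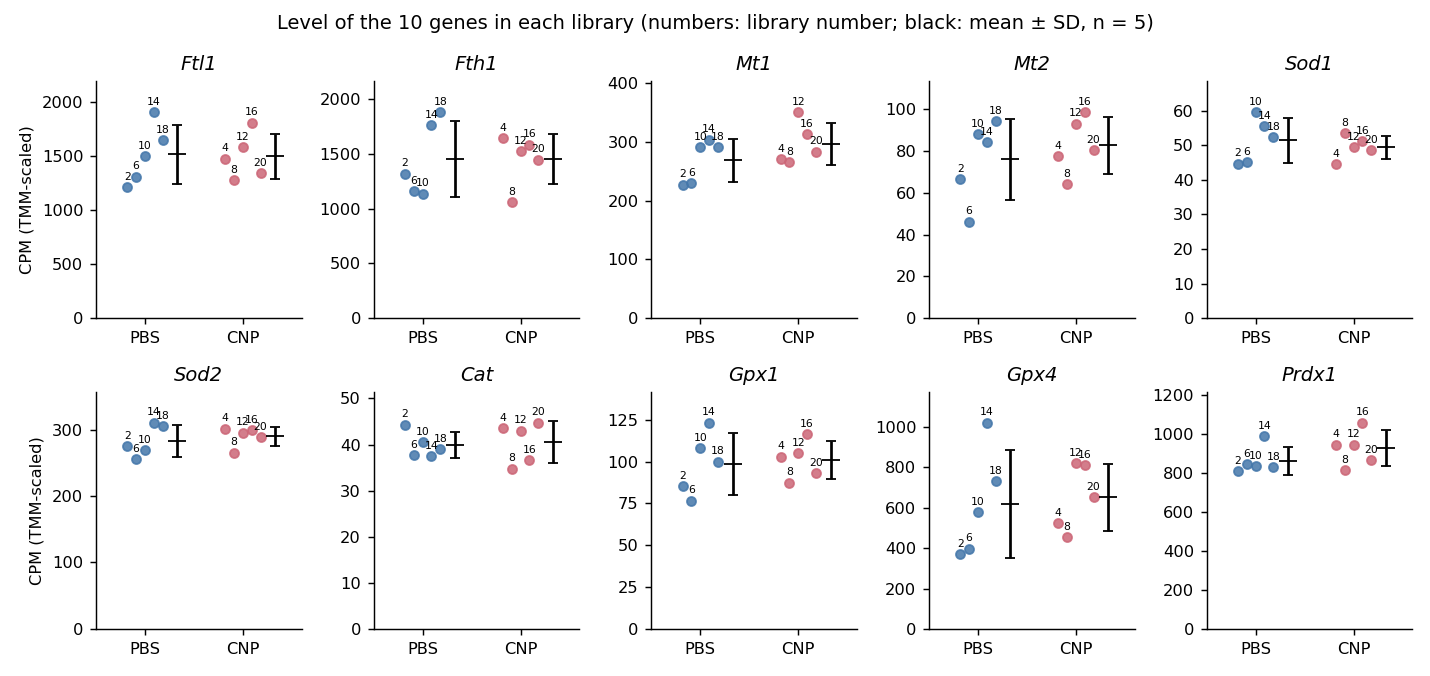
Each panel shows 1 gene, with the level in CPM (TMM-scaled) on an axis from 0, the 5 PBS and 5 CNP libraries as numbered points and the mean ± SD in black. The groups overlap for all 10 genes, where 0.287% of all tested genes had groups that did not, and Gpx4 has the widest spread, from 372 CPM in PBS 2 to 1022 CPM in PBS 14.

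The ferritin genes had the fold changes nearest to 0 among the 10. In PBS libraries 2, 6, 10, 14 and 18, Ftl1 measured 1211, 1308, 1495, 1905 and 1642 CPM, and in CNP libraries 4, 8, 12, 16 and 20 it measured 1475, 1275, 1579, 1807 and 1342 CPM. Both the lowest and the highest of these 10 values were PBS libraries, so that the CNP values lay within the PBS range. The means were 1512 ± 276 CPM in PBS and 1496 ± 210 CPM in CNP (SD, n = 5 each), a log2 fold change of -0.02 (95% interval -0.34 to 0.31). Fth1 measured 1320, 1159, 1136, 1762 and 1882 CPM in PBS and 1645, 1061, 1525, 1585 and 1447 CPM in CNP. PBS 14 and PBS 18 were the highest libraries and CNP 8 the lowest. The means were 1452 ± 348 and 1453 ± 231 CPM (SD, n = 5 each), and the log2 fold change was 0.0011 (95% interval -0.38 to 0.38). The sign of a value this near 0 turns with the scaling used: Fth1 was at -0.0026 with RLE size factors. It also turned with the libraries used. In those numbered up to 10 (3 PBS, 2 CNP) Fth1 was at 0.17, with means of 1205 CPM in PBS and 1353 CPM in CNP. In those above 10 (2 PBS, 3 CNP) it was at -0.27 (edgeR unadjusted p = 0.0279, adjusted 0.992), with 1822 and 1519 CPM. Ftl1 had 0.04 and -0.18 in the same sets. Named ferritin copies hardly took counts: 3 for Ftl1 held 170 counts in all and 11 for Fth1 held 23, against 65596 and 63167 for the genes themselves. Markers of activated phagocytes, cells known to be rich in ferritin, summed to 609 to 757 CPM in PBS and 630 to 787 CPM in CNP on library totals. Nearly all of that sum was Cd63, a lysosomal membrane gene that many cells express (587 to 725 and 595 to 737 CPM). The other 7 summed to 21.6 to 31.9 CPM in PBS and 34.7 to 58.1 CPM in CNP, which do not overlap. Among single genes, 0.287% of all tested had groups that did not overlap. Leaving out Cd63 was chosen after its values were seen, so no test is given. The 8 markers were named here after their values were seen. At an unadjusted edgeR p under 0.05 there were 4 of the 8, beside 1.19% of all tested genes. All 8 had positive fold changes, with a median log2 value of 0.72, and 0 were called by edgeR. Lyz2, the lysozyme of macrophages, had the largest, at 1.34 (SE 0.31), from 3.77 ± 1.06 to 9.23 ± 3.67 CPM (SD, n = 5 each), followed by the antigen-presentation gene H2-Aa at 0.92, the chemokine Ccl6 at 0.83 and Cd74 at 0.81, while Gpnmb had 0.64. H2-Aa and Ccl6 were low, with means of 1.775 and 2.051 CPM in PBS and 3.483 and 3.612 CPM in CNP. Markers of microglia, 10 in all, overlapped between groups, summing to 160 to 267 CPM in PBS and 169 to 281 CPM in CNP. Of the 9 tested, 7 had positive and 2 negative fold changes, with a median log2 value of 0.04. At an unadjusted edgeR p under 0.05 there were 0 of these 9. The part of phagocytes in the ferritin values was not tested.

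Metallothionein transcripts had the largest positive fold changes of the 10 genes, within the spread between libraries. Mt1 measured 227, 229, 291, 304 and 291 CPM in PBS libraries 2, 6, 10, 14 and 18. It measured 271, 266, 351, 313 and 284 CPM in CNP libraries 4, 8, 12, 16 and 20. CNP 12 and CNP 16 exceeded every PBS library, while CNP 4, CNP 8 and CNP 20 lay among the PBS values. The means were 268 ± 37.1 and 297 ± 35.4 CPM (SD, n = 5 each), and the log2 fold change was 0.15 (SE 0.12, 95% interval -0.11 to 0.41; edgeR adjusted p = 0.9997). Mt2 measured 66.6, 46.2, 88.0, 84.3 and 94.4 CPM in PBS and 77.5, 64.1, 93.0, 98.6 and 80.3 CPM in CNP. PBS 6 was the lowest library and CNP 16 the highest, with the groups overlapping over most of their range. The log2 fold change of Mt2 was 0.13 (SE 0.18, 95% interval -0.26 to 0.52), from 75.9 ± 19.5 to 82.7 ± 13.6 CPM (SD, n = 5 each), and without PBS 6 it was -0.01. The neuronal relative Mt3 measured 45.5 ± 7.76 CPM in PBS and 53.5 ± 7.53 CPM in CNP (SD, n = 5 each; log2 fold change 0.24, SE 0.13), and Mt4 had 0 counts.

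Of the superoxide dismutases, Sod2 varied less than Sod1. Sod1, the copper and zinc enzyme, ran from 44.7 to 59.6 CPM in PBS and from 44.4 to 53.5 CPM in CNP, with a log2 fold change of -0.06 (95% interval -0.28 to 0.17). Sod2, the manganese enzyme, ran from 255 to 311 CPM in PBS and from 265 to 301 CPM in CNP, with a log2 fold change of 0.04 (95% interval -0.16 to 0.23). Its coefficient of variation over all 10 libraries was 6.60%, the lowest among the 10 genes, where counting error alone would give 2.81%. For Sod1 the corresponding values were 9.92% and 6.70%. Its coefficient of variation was above those of Cat (8.85%) and Prdx1 (9.54%). On library totals the highest library had 1.39 times the level of the lowest for Sod1 and 1.17 times for Sod2. The copper chaperone Ccs, which loads Sod1, measured 71.2 ± 10.2 CPM in PBS and 71.3 ± 8.30 CPM in CNP (SD, n = 5 each).

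Among the peroxide-removing enzymes, Cat and Prdx1 varied least and Gpx4 most, by the coefficient of variation of TMM-scaled CPM. The place of Cat depends on the scaling. On library totals the highest library had 1.53 times the level of the lowest for Cat. For Gpx1 this ratio was 1.38, for Prdx1 1.34 and for Gpx4 2.13. Catalase ran from 37.5 to 44.3 CPM in PBS and from 34.8 to 44.8 CPM in CNP (log2 fold change 0.02, 95% interval -0.20 to 0.24), and its coefficient of variation of 8.85% was close to the 7.46% of counting error. Prdx1 measured 809, 844, 837, 991 and 830 CPM in PBS libraries 2, 6, 10, 14 and 18, and 945, 816, 945, 1058 and 865 CPM in CNP libraries 4, 8, 12, 16 and 20. CNP 16 was the highest library and 4 of 5 CNP values exceeded 4 of 5 PBS values, PBS 14 being the PBS library set apart. The log2 fold change was 0.10 (SE 0.11, 95% interval -0.13 to 0.34; edgeR adjusted p = 0.9997), from 862 ± 73.2 to 926 ± 92.0 CPM (SD, n = 5 each). Gpx1, a cytosolic selenoenzyme, ran from 76.7 to 123 CPM in PBS and from 87.4 to 116 CPM in CNP, with a log2 fold change of 0.04 (95% interval -0.25 to 0.32).

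Gpx4 measured 372, 398, 580, 1022 and 732 CPM in PBS libraries 2, 6, 10, 14 and 18. In CNP libraries 4, 8, 12, 16 and 20 it measured 523, 453, 823, 811 and 652 CPM. The highest library had 2.75 times the level of the lowest, both of them PBS, and the CNP values lay between. The means were 621 ± 268 and 653 ± 167 CPM (SD, n = 5 each), and the log2 fold change of 0.07 had the widest 95% interval of the 10, from -0.51 to 0.65. It was 0.33 without PBS 14 and -0.07 without PBS 2. The coefficient of variation over all 10 libraries was 33.1%, against 1.94% for counting error, and 94.9% of the 1875 tested genes at 100 CPM or more varied less. On library totals it was 25.3%.

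The spread of Gpx4 followed the library number in the labels, whose meaning they do not state. All 5 libraries numbered up to 10 (3 PBS, 2 CNP) lay at 372 to 580 CPM, and all 5 above 10 (2 PBS, 3 CNP) at 652 to 1022 CPM. The ratio of the means was 1.74, and on library totals 1.51, again with no overlap (406 to 614 against 623 to 864 CPM). The cut at 10 came from earlier results of these data, so no test is given, and sets that did not overlap were found for 20.6% of all tested genes. Within each set the treatment means were 450 CPM in PBS and 488 CPM in CNP up to 10, and 877 CPM in PBS and 762 CPM in CNP above 10. No other of the 10 genes separated the sets. Their ratios were 1.32 for Mt2, 1.30 for Fth1, 1.22 for Ftl1, 1.20 for Mt1, 1.17 for Gpx1, 1.10 for Prdx1 and Sod2, 1.04 for Sod1 and 1.00 for Cat. The scaling moves these values, since the median log2 ratio of all tested genes was -0.02 with TMM and -0.22 on library totals; on totals the ratios of Prdx1 (0.960), Sod2 (0.953), Sod1 (0.901) and Cat (0.871) fell below 1.

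Several library measures moved with the same numbers. Libraries up to 10 had 4325794 to 5428697 counts and TMM factors of 1.03 to 1.10, those above 10 had 3328518 to 4337612 counts and factors of 0.848 to 0.973. On library totals, rod markers summed to 45000 to 49800 CPM up to 10 and 53300 to 66700 CPM above, and pigment epithelium markers to 565 to 1390 and 1490 to 2500 CPM. Müller glia markers went the other way, at 4600 to 5330 CPM up to 10 and 3030 to 4640 CPM above. The part of these measures in the Gpx4 values was not tested.

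**Figure D2:**
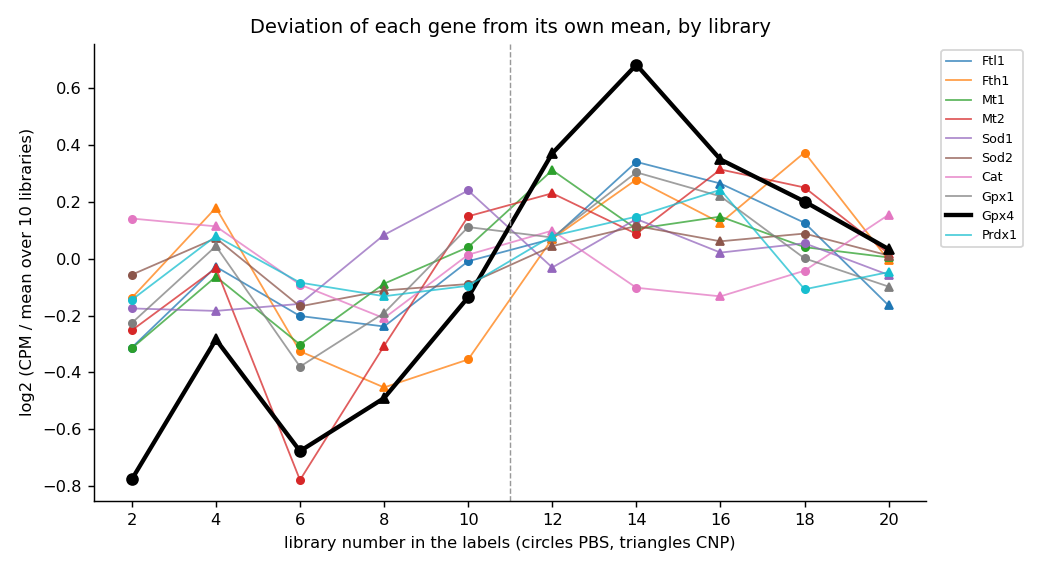
The log2 ratio of each gene's CPM to its own mean over the 10 libraries is plotted against the library number, with circles for PBS, triangles for CNP, lines that join the values of 1 gene, and a dashed line after library 10. Gpx4, in black, lies below its mean in the 5 libraries up to 10 and above it in the 5 later ones.

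The comparison the study was built on asks whether the nanoparticles changed these transcripts. By edgeR's quasi-likelihood test over the whole table, 0 of the 10 genes were called, where 0 of 11499 genes were (0% of all tested; smallest adjusted p = 0.9997). At an unadjusted p under 0.05 there were 0 of the 10, beside 137 of all tested genes (1.19%), 86 with DESeq2 and 142 with limma-voom. Groups that did not overlap were found for 0 of the 10 and for 0.287% of all tested genes. Of the 10 fold changes 8 were positive and 2 negative, with a median log2 value of 0.04, where the median of all genes was -0.0036. The 95% interval stayed within 2-fold in either direction for all 10 genes, as it did for 94.2% of all tested genes. Within 1.5-fold it stayed for 9 of the 10, all but Gpx4, and for 65.3% of all tested genes.

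**Figure D3:**
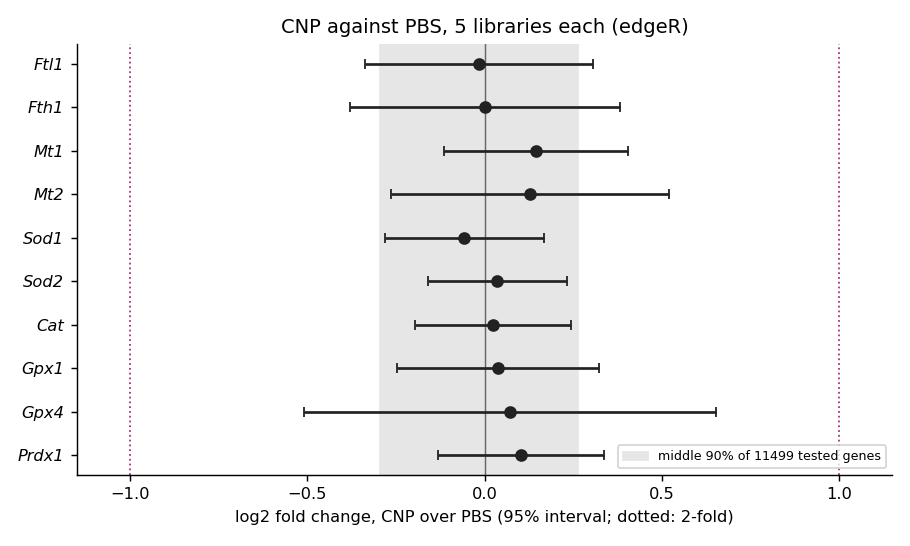
Points are the log2 fold changes of CNP over PBS with 95% intervals from edgeR (5 libraries each), the grey band holds the middle 90% of 11499 tested genes, and dotted lines mark 2-fold. Every interval includes 0 and stays inside 2-fold, and that of Gpx4 is the widest, from -0.51 to 0.65.

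Genes with related roles were compared over the 10 libraries as 4 pairs, by log2 CPM. For Mt1 and Mt2, Pearson's r was 0.837 (permutation p = 0.00149, adjusted over 4 pairs 0.00326) and Spearman's rho 0.855 (permutation p = 0.0032, adjusted 0.01). Gpx1 and Gpx4 gave r = 0.867 (permutation p = 0.00163, adjusted 0.00326) and rho = 0.830 (permutation p = 0.005, adjusted 0.01). The ferritin chains gave r = 0.708 (permutation p = 0.0254, adjusted 0.0338) and rho = 0.721 (permutation p = 0.0231, adjusted 0.0308). Sod1 and Sod2 did not covary detectably, with r = 0.102 (permutation p = 0.776, adjusted 0.776) and rho = 0.0909 (permutation p = 0.812, adjusted 0.812). The permutations treated the 10 libraries as exchangeable, although those numbered above 10 did not overlap the rest for 20.6% of all tested genes. They cannot tell whether a relation is particular to its pair.

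Pairs of genes with different roles had values as high. With group means removed, the median r over all 45 pairs of the 10 genes was 0.642. It was higher than for Mt1 and Mt2 (0.833) in 7 other pairs, than for Gpx1 and Gpx4 (0.865) in 4 and than for the ferritin chains (0.709) in 18. The highest values joined different roles, at 0.962 for Fth1 with Sod2, 0.923 for Ftl1 with Gpx4 and 0.912 for Mt1 with Gpx4. All pairs share the libraries and their scaling, and these values carry no test.

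Apart from Sod1 and Sod2, which were not called, the pairs lost their call with another scaling and with fewer libraries. On library totals r was 0.697 for Mt1 and Mt2 (permutation p = 0.0213, adjusted 0.085), 0.536 for Gpx1 and Gpx4 (permutation p = 0.109, adjusted 0.219) and 0.307 for the ferritin chains (permutation p = 0.389, adjusted 0.519). Without the 2 libraries farthest from the median of the first gene r was 0.724, 0.765 and 0.693, each with an adjusted permutation p of 0.0847. Within the 5 libraries up to 10 and the 5 above, too few for a test here, r was 0.785 and 0.475 for Mt1 and Mt2, 0.907 and 0.926 for Gpx1 and Gpx4, and 0.320 and 0.610 for the ferritin chains. For Sod1 and Sod2 it was -0.308 and 0.972, opposite in sign between the sets.

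**Figure D4:**
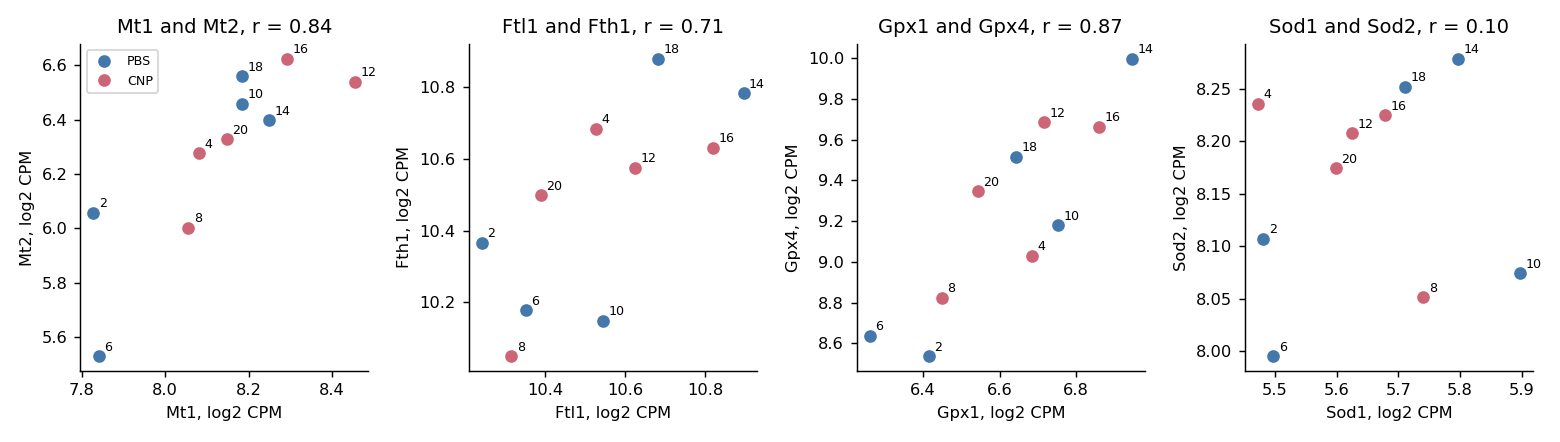
Each panel sets the log2 CPM of 1 gene against that of its partner, with 1 point per library (number beside it, blue PBS and red CNP). Mt1 with Mt2 (r = 0.837) and Gpx1 with Gpx4 (r = 0.867) follow a rising line in which PBS and CNP libraries are mixed, while Sod1 and Sod2 (r = 0.102) scatter.

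Around these 10 genes, 107 others of the same pathways were followed, of which 97 could be tested. By edgeR 0 were called, and 0 had an unadjusted p under 0.05; 48 fold changes were positive and 49 negative, with a median log2 value of -0.0014. Leaving out each library in turn changed the sign for 55 of the 97, so the counts of signs below describe these libraries only. In iron handling, 8 of 18 tested genes were positive. The transferrin receptor Tfrc, which brings iron into cells, measured 35.7 ± 3.26 CPM in PBS and 37.9 ± 2.58 CPM in CNP (SD, n = 5 each; log2 fold change 0.09). Hmox1, which releases iron from heme, had 0.03, the iron chaperone Pcbp2 0.02 and Fbxl5, which marks an iron regulatory protein for degradation, 0.05. The smallest p values of this group belonged to the ferrireductase Steap3 (-0.28) and to Lcn2, which binds iron-laden siderophores (0.27). Ftmt, the mitochondrial ferritin, had 0 counts.

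In the metal group, 4 of 12 tested genes were positive. The vesicular zinc transporter Slc30a3 stood at -0.65 on the log2 scale (SE 0.32), with 3.57 ± 1.49 CPM in PBS against 2.31 ± 0.787 CPM in CNP (SD, n = 5 each). It was low, with 141 counts over all libraries. Libraries up to 10 (3 PBS, 2 CNP) lay at 2.613 to 5.732 CPM and those above 10 (2 PBS, 3 CNP) at 1.429 to 2.603 CPM. Such sets did not overlap for 20.6% of all tested genes. The part of library number in this fold change was not tested. Atox1, the copper chaperone, had 0.15. The zinc importer Slc39a1 had -0.36 with a wide spread, from 25.0 CPM in CNP 16 to 224 CPM in CNP 8.

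Of the other superoxide and peroxide genes, 8 of 14 were positive. The peroxiredoxins were near 0 on the log2 scale, with Prdx2 at 0.09 and Prdx5 at 0.04, and the oxidation resistance gene Oxr1 was at -0.14. The secreted enzymes Gpx3 and Sod3 had -0.9999 and -0.33, but 1 library set both signs: without PBS 14 the values were 0.08 and 0.07, with PBS means of 16.2 and 4.19 CPM beside CNP means of 17.1 and 4.68 CPM.

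Genes that supply glutathione and thioredoxin were positive in 17 of 26 tested cases, with a median log2 value of 0.02. Mitochondrial thioredoxin Txn2 had 0.04 and the microsomal glutathione transferase Mgst3 0.11, while the transferase Gstm1 had -0.21 and the reductase Txnrd2 -0.17. Of the NRF2 group, 7 of 13 were positive. Nfe2l2, which encodes the factor NRF2 itself, measured 28.1 ± 2.19 CPM in PBS and 29.1 ± 4.08 CPM in CNP (SD, n = 5 each). Its inhibitor Keap1 had a log2 fold change of 0.0022, Sqstm1 -0.10, Mafk 0.21 and the repressor Bach1 -0.35 (SE 0.34). Bach1 was low, with 109 counts over all libraries and means of 2.745 CPM in PBS and 2.155 CPM in CNP. Its value was -0.09 without CNP 4 and -0.56 without CNP 8. No member of these groups was called.

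Gpx1 and Gpx4 need selenocysteine, and in the selenoprotein group 6 of 11 genes were positive. The selenoproteins Selenok and Selenow had log2 fold changes of 0.10 and 0.05, the selenium carrier Selenop 0.16 and Secisbp2, which reads the selenocysteine signal, -0.12. Glucocorticoids are known inducers of metallothionein genes; of 8 tested glucocorticoid response genes 1 was positive and 7 negative, with a median log2 value of -0.02. Fkbp5 had -0.41 and Per1 -0.22, and the most abundant members Ddit4 and Sgk1 had 0.0083 and -0.02.

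**Figure D5:**
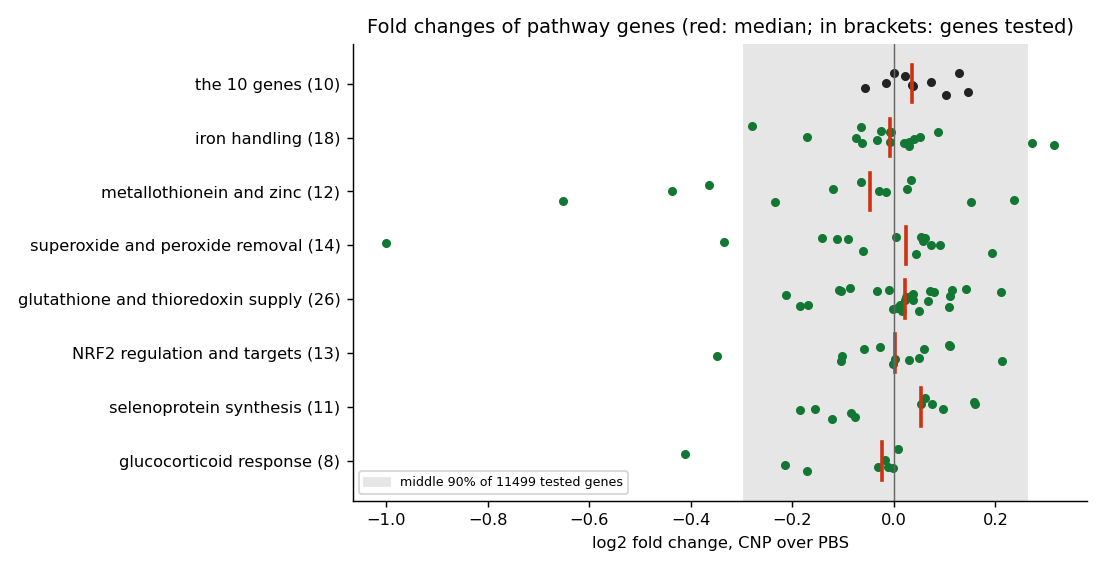
Each point is the log2 fold change, CNP over PBS, of 1 tested gene, arranged by group with the number tested in brackets, and red bars mark group medians over a grey band that holds the middle 90% of all 11499 tested genes. Group medians lie between -0.0468 and 0.053, and the point farthest from 0 is Gpx3 at -0.9999, which is 0.08 without PBS 14.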

How the data were processed

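The deposited table holds raw counts, whole numbers for 57186 Ensembl genes in 10 libraries. Per the labels' protocols, barcoded primers with UMIs and template switching were used. STAR, STARsolo and GRCm39 are named per the submitters' processing notes; versions, the annotation release, the use of strand and UMI collapsing are not given in these sources. Libraries were matched to groups by label. Ensembl IDs were paired with symbols by a reference table (51880 matched); each of the 10 genes had 1 ID. IDs without a symbol held 0.881% of counts.

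Counts were filtered with filterByExpr (minimum count 10, minimum total 15), scaled by TMM and tested two-sided by the quasi-likelihood method of edgeR 4.0.16 (R 4.3.3), with p-values adjusted by Benjamini-Hochberg over 11499 genes (threshold 0.05, no covariate). CPM is TMM-scaled unless "on library totals" is stated; log2 CPM used a prior count of 2. Pair correlations used 100000 permutations. The scripts were tested on simulated data. The members, pathway lists and tests were chosen with earlier results of these data known. Beside the members, named genes are 6 fixed genes and, per list, the 2 with the smallest p and the 2 most abundant; for each member the 2 most alike are named. Ccs, Mt4, Ftmt, Scaf4, Slc4a1 and the phagocyte and microglia markers were added after their values were seen. Alternatives were DESeq2 1.42.0, limma-voom (limma 3.58.1), other scalings, no filter, robust fitting, covariates, subsets by library number and leaving out each library. Library numbers differ between groups and pair no samples. Genes without an assigned symbol were not named.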

Additional observations from a re-analysis of the deposited data

Results flagged for a closer look

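Prdx1 in PBS 14 stood at 991 CPM while the other PBS libraries lay between 809 and 844 CPM, a gap that is large for the range of its group by Dixon's criterion at 5 libraries. It was the only library set apart in this way among the 20 groups of 5 libraries examined (10 genes in each treatment). Chance sets apart about 5% of groups.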

How the results depend on the processing

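The number of genes called was 0 under all 23 alternatives run. Of 230 refits of the 10 genes (23 each), none was called (smallest edgeR adjusted p = 0.9275), 191 kept the sign of the log2 fold change and 39 did not. Mt1 and Prdx1 kept theirs throughout, at 0.06 to 0.20 and 0.05 to 0.16. Fth1 turned to -0.0026 with DESeq2 and with RLE size factors, -0.0474 with library number above 10 as a covariate, -0.0944 with the lens score and -0.0933 with that of pigment epithelium as covariates, and -0.27 in the libraries numbered above 10 (edgeR adjusted p = 0.992). With number as a covariate, with the pigment epithelium score and in the libraries above 10, Gpx4 turned to -0.0426, -0.10 and -0.21 and Gpx1 to -0.0015, -0.0435 and -0.0964. Sod2 turned to -0.0043 with the pigment epithelium score and -0.0692 in the libraries above 10. The lens score turned Cat to -0.0091 and Sod1 to 0.0125. In the libraries up to 10, Cat was at -0.0605 and Ftl1 at 0.0408. Leaving out 1 library gave -0.0929 (without CNP 16) to 0.082 (without PBS 14) for Ftl1, -0.0735 (without PBS 10) to 0.11 (without PBS 18) for Fth1, -0.0103 (without PBS 6) to 0.22 (without PBS 18) for Mt2, -0.11 (without PBS 2) to 0.0055 (without PBS 10) for Sod1, -0.00048 (without PBS 6) to 0.0715 (without PBS 14) for Sod2, -0.0151 (without CNP 20) to 0.0804 (without CNP 8) for Cat, -0.0432 (without PBS 6) to 0.13 (without PBS 14) for Gpx1, and -0.0681 (without PBS 2) to 0.33 (without PBS 14) for Gpx4. The pair correlations lost their call on library totals (Pearson r 0.697 for Mt1 and Mt2, 0.307 for Ftl1 and Fth1, 0.536 for Gpx1 and Gpx4) and without the 2 libraries farthest from the median (0.724, 0.693 and 0.765). For Sod1 and Sod2, r was -0.308 in the libraries up to 10 and 0.972 in those above. The causes were not tested. No paired analysis was possible because the groups share no replicate number. Log2 total count as a covariate and leaving out libraries for the pathway genes were added after seeing the data. At 120 to 263 counts per library for Cat and 161 to 273 for Sod1, counting error limits these members most.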

Other observations

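Among the other peroxide-removing enzymes, the secreted glutathione peroxidase Gpx3 measured 112 CPM in PBS 14 and 12.8 to 20.8 CPM in the other 9 libraries. In the same library the secreted superoxide dismutase Sod3 measured 13.0 CPM, against 1.30 to 6.91 CPM in the others. These libraries were singled out after their values were seen. The SD of Gpx3 over 5 libraries was 42.8 CPM in PBS but 2.67 CPM in CNP. Its log2 fold change of -0.9999 (edgeR adjusted p = 0.9997) turned to 0.08 without PBS 14, and that of Sod3 from -0.33 to 0.07. Lens markers summed to 4300 CPM on library totals in PBS 14 and to 13800 CPM in PBS 10, where Gpx3 was 16.2 CPM; their part in these values was not tested.

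For each of the 10 genes, the genes with the most similar profile over the 10 libraries were sought among 5488 other genes of at least 20 CPM, by Pearson's r of log2 CPM with group means removed. All of these values share the library scaling, they are the highest of 5488 and they carry no test. Differences between libraries numbered up to 10 and above were not removed. Those sets did not overlap for 20.6% of all tested genes, Gpx4 among them. For Gpx4 the most alike were Sf3b5 (r = 0.997) and Snrpd2 (0.996), both of which encode small proteins of the splicing machinery. Ftl1 was nearest to Cox8a (0.995), a subunit of cytochrome c oxidase, and to Hpf1 (0.993), a cofactor of ADP-ribosylation. Mt1 was nearest to Atox1 (0.988), the copper chaperone, and to Nop10 (0.981), a component of small nucleolar ribonucleoproteins. For Fth1 they were Clta (0.964), a clathrin light chain, and the superoxide dismutase Sod2 (0.962), which is itself among the 10 genes. Sod2 was in turn nearest to the translation initiation subunit Eif3k (0.983) and the actin-binding Tmsb4x (0.976). Prdx1 was nearest to Smim4 (0.972) and to its relative Prdx5 (0.958). For the remaining genes the nearest were Gpx1 with Top1mt (0.968) and Rdh14 (0.964), Sod1 with Cdkn1c (0.964) and Polr1c (0.950), Mt2 with Atg5 (0.943) and Nudt2 (0.941), and Cat with Dym (0.905) and Ccnk (0.863). Apart from Fth1 with Sod2, none of these nearest genes was another of the 10.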
